A study of Homo sapiens with 6 samples.

Results

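ADAMTS genes encode secreted zinc metalloproteases that carry a disintegrin-like domain and thrombospondin repeats and act on the extracellular matrix. They are made as inactive precursors whose propeptide is removed by furin-type convertases, and several of them, the hyalectanases, cleave the large proteoglycans versican and aggrecan. Other members act on matricellular proteins or associate with fibrillin microfibrils. In the mouse, Adamts1 is required for normal development of the kidney and its outflow tract.

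The genes described are 10 members of this family, namely ADAMTS1, ADAMTS4, ADAMTS5, ADAMTS6, ADAMTS7, ADAMTS9, ADAMTS10, ADAMTS12, ADAMTS15 and ADAMTS17, among 38100 genes in the count table. They were taken by symbol, and the family was chosen by the difference of ADAMTS1 between the groups compared here. Their values in that comparison are therefore a description and carry no independent test. HK2 cells, an immortalized line of human proximal tubular epithelial cells with WT as the genotype given, were measured by bulk poly-A RNA-seq in 2 groups of 3 samples. One group received the control adenovirus (AdCtrl) and the other an adenovirus carrying SIRT4 (AdSirt4), a sirtuin known mainly from mitochondria. Both groups were stimulated with TGF-β1, a profibrotic cytokine, so the comparison shows the effect of the SIRT4 virus under TGF-β1 and not the effect of TGF-β1 or of adenovirus itself. No dose or duration is given in the labels. The titles name HK2 in every sample, whereas the cell line entry counts up by 1 from sample to sample. The labels do not say whether the 3 samples of a group were separate cultures. The study's reporting checklist counts in vitro replicates as technical, whereas its methods speak of independent experiments, and neither singles out the RNA-seq. The p-values therefore measure the spread between these samples, which may be technical.

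Library totals ran from 41537353 to 85684748 counts, and 3 counts corresponded to 0.0350 to 0.0722 CPM (counts scaled to the library total and given per 1e6 counts). SIRT4 was at 0.573, 1.11 and 1.11 CPM in AdCtrl and at 51.2, 92.7 and 84.0 CPM in AdSirt4, and the counts do not separate the viral from the endogenous transcript. AdSirt4 replicate 1, with the smallest library total, stood apart. Its deviation from the group mean fell with gene length (Spearman's rho across genes -0.61). This rho was 0.54 and 0.55 in AdSirt4 replicates 2 and 3 and -0.18 to 0.19 in the AdCtrl samples. Deviations from a mean of 3 samples are not independent of each other. The chi-square per gene of its counts against replicates 2 and 3 was 191 and 237, against 18.9 between replicates 2 and 3. The log2 differences of the members are given with and without that library. Summed epithelial keratin and adhesion markers (6 genes) were at 1368 to 1400 CPM in AdCtrl and 1267 to 1906 CPM in AdSirt4, the highest being replicate 1, with CDH1 (E-cadherin) at only 0.504 to 0.869 CPM. The proximal tubule list (10 genes) summed to 447.3 to 498.7 and 421.0 to 483.5 CPM and was carried by GGT1 and PAX8, whereas LRP2, AQP1, ANPEP and HNF4A, which define the mature tubule, were near 0. Fibroblast markers (8 genes) summed to 43.6 to 46.8 and 42.2 to 42.5 CPM, mostly from COL1A1 and LUM, with COL1A2, PDGFRA and FAP near 0. Endothelial markers (6 genes) summed to at most 0.766 CPM. Leukocyte markers (6 genes) summed to 34.4 to 39.8 and 38.6 to 49.6 CPM, mostly from CD68, with CD3E at 0. The part of these markers in the results below was not tested. In bulk RNA, fewer cells expressing a gene and less of its RNA per cell cannot be told apart.

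ADAMTS1 was the member that differed. This hyalectanase, which also carries antiangiogenic activity, stood at 37.8, 39.1 and 40.3 CPM in AdCtrl and at 80.1, 80.5 and 77.9 CPM in AdSirt4. The lowest AdSirt4 sample lay well above the highest AdCtrl sample, and the samples within each group lay close together. The means were 39.1 ± 1.26 and 79.5 ± 1.44 CPM (SD, n = 3), a 2.04-fold difference, or 1.03 on the log2 scale (SE 0.0825, 95% interval 0.83 to 1.22). Per transcript length the pattern was the same, with 6.40, 6.45 and 7.10 FPKM against 12.6, 13.7 and 13.4 FPKM. AdSirt4 replicate 1 did not differ from the rest of its group in this gene, and the log2 difference without that library was 1.02.

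ADAMTS1, by whose difference the family was chosen, had an adjusted p of 0.0395 in edgeR's quasi-likelihood test over 17720 genes. With the replicate number as a block this became 0.303 at the same fold change. Leaving out any single library other than AdSirt4 replicate 1 also ended the call, with adjusted p of 0.194 without AdSirt4 replicate 3, 0.264 without AdSirt4 replicate 2, 0.619 without AdCtrl replicate 3, 0.797 without AdCtrl replicate 1 and 0.93 without AdCtrl replicate 2, whereas the log2 difference stayed between 1.00 and 1.05. Without AdSirt4 replicate 1 it was 5.73e-06. Only 2 genes, 0.0113% of those tested, passed this threshold as higher in AdSirt4, the other being SIRT4, and no gene passed it as lower, while DESeq2 called 124 higher and 82 lower. At an unadjusted p under 0.01 the same fit placed 1.12% of genes as higher and 0.784% as lower. By size of the difference ADAMTS1 ranked 206 of 17720 genes. Among the 10358 genes averaging at least 10 CPM, 3 had a larger log2 difference. These, named after their values were seen, were SIRT4, CLEC4E and TVP23C-CDRT4, and the groups overlapped for the last of them.

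**Figure D1:**
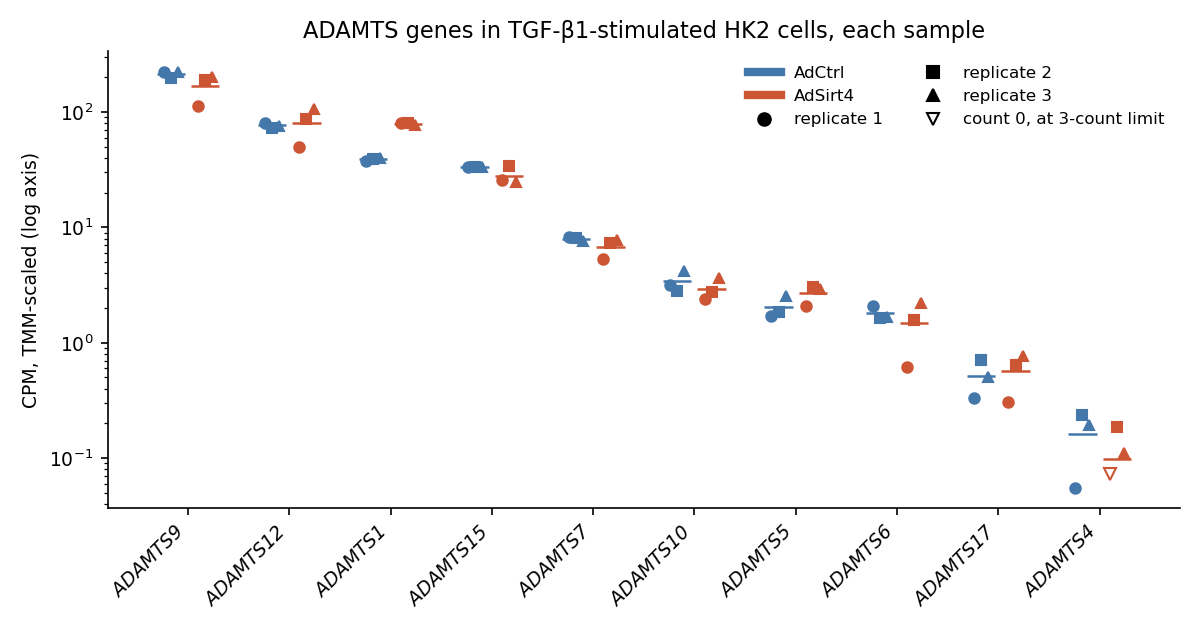
CPM of each ADAMTS gene (log axis) in the 3 AdCtrl and 3 AdSirt4 samples, with 1 point per sample, its shape giving the replicate number, and a line for the group mean. An open triangle marks a count of 0 drawn at the 3-count limit. The groups stand apart in ADAMTS1 and overlap in each of the other 9 members. AdSirt4 replicate 1 is the lowest sample in ADAMTS6, ADAMTS7, ADAMTS9, ADAMTS10, ADAMTS12 and ADAMTS17. In ADAMTS4 its count is 0, and its triangle is drawn above the point of AdCtrl replicate 1.

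Of the remaining 9 members, ADAMTS4 had too few counts to be tested and the other 8 overlapped between groups. Groups that do not overlap, in either direction, were common among all genes (9.66% higher and 9.77% lower in AdSirt4), and ADAMTS1 was the only member among them. The 8 others had log2 differences between -0.36 and 0.41, with 3 higher and 5 lower and a median of -0.22, against a median of 0.02 over all genes tested. None of the 8 had an unadjusted p under 0.05 in edgeR or an adjusted p under 0.05 in DESeq2. Without AdSirt4 replicate 1 the median of the same 8 was -0.0058, with 4 higher and 4 lower, and each of the 8 values moved upward. With the dependence on gene length removed the median was -0.16.

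**Figure D2:**
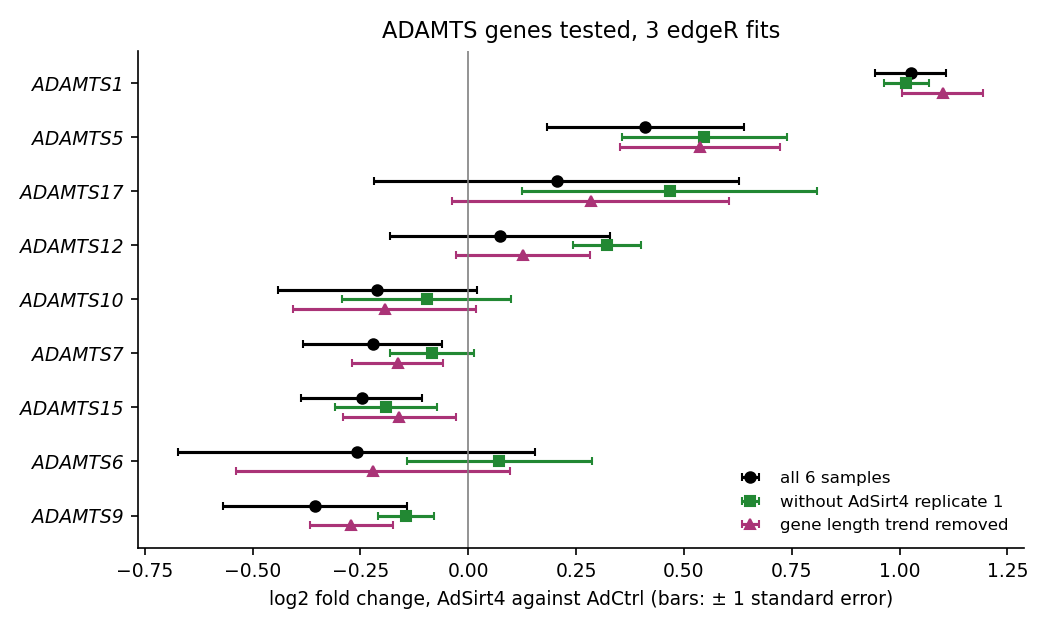
Log2 difference (AdSirt4 minus AdCtrl) of the 9 tested members with bars of 1 standard error, from all 6 libraries, without AdSirt4 replicate 1 and with the gene length trend removed. ADAMTS1 is at 1.03, 1.02 and 1.10, whereas each of the other 8 shifts upward when the library is left out, ADAMTS15 from -0.25 to -0.19 and ADAMTS6 from -0.26 to 0.07.

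ADAMTS9 was the most abundant member. It is a hyalectanase with a conserved role in secretion and in the formation of cilia. Its CPM were 223.4, 197.2 and 225.2 in AdCtrl and 114.0, 189.5 and 201.1 in AdSirt4, so that replicate 1 was far below the AdCtrl range, replicate 2 slightly below it and replicate 3 inside it. The log2 difference was -0.36 (SE 0.213, interval -0.86 to 0.15) and -0.15 without replicate 1. ADAMTS15, a hyalectanase frequently studied as a candidate tumor suppressor, was at 33.8, 33.2 and 33.2 CPM in AdCtrl and 25.7, 34.0 and 24.6 CPM in AdSirt4. Here replicates 1 and 3 were low and replicate 2 was at the AdCtrl level, and the log2 difference was -0.25 (SE 0.140, interval -0.58 to 0.084). It was -0.19 without AdSirt4 replicate 1, -0.40 without AdSirt4 replicate 2 and -0.16 without AdSirt4 replicate 3.

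ADAMTS5, the main aggrecan-degrading enzyme of mouse cartilage, lies beside ADAMTS1 on chromosome 21. It was low in these cells, at 1.72, 1.86 and 2.53 CPM in AdCtrl and 2.10, 3.05 and 2.93 CPM in AdSirt4. Replicate 1 of AdSirt4 fell within the AdCtrl range and the other AdSirt4 samples lay above it. The log2 difference was 0.41 (SE 0.228, interval -0.13 to 0.95), rising to 0.55 without AdSirt4 replicate 1. It was 0.60 when voom weighted the samples by quality (adjusted p = 0.0346 in limma), a fit that called 884 of 17720 genes higher. The difference fell to 0.30 without AdCtrl replicate 1. In limma on log2(FPKM + 1) it was 0.065, where the added 1 FPKM exceeds the level of this gene, at most 0.279 FPKM. Over all settings the adjusted p of ADAMTS5 ran from 0.0346 to 0.971. ADAMTS4, the other well-known aggrecanase, had 3, 10 and 10 counts in AdCtrl and 0, 16 and 9 in AdSirt4. At these counts, several at or near the floor of 3, a difference was not detectable.

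Both genes stand in tandem on the minus strand. On GRCh38 (GENCODE v29) ADAMTS1 occupies chr21:26835747-26845409 with 9 exons, and ADAMTS5 occupies chr21:26917912-26966513 with 8 exons, separated by 72.5 kb. Per length ADAMTS1 was 29.6 to 41.1 times the level of ADAMTS5 in AdCtrl and 49.1 to 71.4 times in AdSirt4. Among the members ADAMTS1 has the shortest gene, 9.66 kb, whereas ADAMTS6, ADAMTS12 and ADAMTS17 are far longer, at 333.2, 368.7 and 370.4 kb.

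ADAMTS7 and ADAMTS12 share a mucin-like domain and cleave the cartilage oligomeric matrix protein. ADAMTS12 was the second most abundant member in AdCtrl, with 81.0, 73.3 and 75.7 CPM, and its AdSirt4 samples were at 49.5, 86.6 and 105.8 CPM. The AdSirt4 samples fell on both sides of the AdCtrl range, and the direction depended on the library. The log2 difference was 0.07 (SE 0.254, interval -0.53 to 0.68), 0.32 without AdSirt4 replicate 1 (edgeR adjusted p = 0.0404, and 0.0404 to 0.99 over all settings) and -0.17 without AdSirt4 replicate 3. ADAMTS7 was at 8.21, 8.03 and 7.61 CPM in AdCtrl and 5.31, 7.30 and 7.76 CPM in AdSirt4, with replicate 1 again lowest. Its log2 difference was -0.22 (SE 0.161, interval -0.60 to 0.16), and -0.083 without that library. The annotation holds 3 transcribed pseudogene copies of ADAMTS7 on chromosome 15, so its counts are uncertain.

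ADAMTS6 and ADAMTS10 are close relatives linked to fibrillin microfibrils, and ADAMTS10 and ADAMTS17 are mutated in Weill-Marchesani syndromes. ADAMTS6 was at 2.07, 1.65 and 1.67 CPM in AdCtrl and 0.616, 1.58 and 2.23 CPM in AdSirt4. The low value was replicate 1, and the log2 difference moved from -0.26 (SE 0.413, interval -1.24 to 0.72) to 0.07 without it and to -0.67 without AdSirt4 replicate 3. ADAMTS10 was at 3.20, 2.80 and 4.22 CPM in AdCtrl and 2.39, 2.75 and 3.67 CPM in AdSirt4, with a log2 difference of -0.21 (SE 0.231, interval -0.76 to 0.33). This became -0.097 without AdSirt4 replicate 1, -0.028 without AdCtrl replicate 3 and -0.41 without AdSirt4 replicate 3. ADAMTS17, with 12 to 63 counts per library, was at 0.333 to 0.706 CPM in AdCtrl and 0.308 to 0.775 CPM in AdSirt4. Its log2 difference of 0.20 had an SE of 0.423, and its direction depended on single libraries. It was 0.47 without AdSirt4 replicate 1 and 0.48 without AdCtrl replicate 2, against -0.067 without AdSirt4 replicate 3 and -0.040 without AdCtrl replicate 1. A difference was not detectable at this depth.

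Overlapping genes touch 2 members. ADAMTS9 shares 174 exonic bases (1.63% of its exons) with ADAMTS9-AS1 on the opposite strand, which had 7 to 60 counts, and ADAMTS17 shares 431 bases (5.23%) with AC084855.1. The library kit is not described as marking strand, so reads from these stretches cannot be told apart.

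Without AdSirt4 replicate 1, 2 of the 10 members then testable passed an adjusted p under 0.05 in edgeR, ADAMTS1 and ADAMTS12, both higher. In that fit 3.37% of 18287 genes were called higher and 3.34% lower. No member was called lower in it, and ADAMTS9 had an unadjusted p of 0.0467.

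The departure of AdSirt4 replicate 1 was measured gene by gene as its log2 CPM minus the mean of AdSirt4 replicates 2 and 3. Before the log, 0.5 CPM was added. ADAMTS1 was at 0.017, whereas the 3325 genes within 20% of its length, as implied by the ratio of counts to FPKM, had a median of -0.25, and 23.0% of them were at or above it. ADAMTS12 was at -0.94 against a median of -0.34 for genes of its length, ADAMTS6 at -1.09 against -0.41, and ADAMTS9 at -0.77 against -0.45. ADAMTS10 and ADAMTS7 were also lower than the median of their length class, at -0.35 against -0.064 and -0.47 against -0.28. ADAMTS15 and ADAMTS5 were lower by less than the median of their length class, at -0.17 against -0.32 and -0.42 against -0.57. ADAMTS17 was at -0.58 against -0.75. At its 0.308 CPM in this library, however, the added 0.5 CPM draws the value toward 0. The implied length of ADAMTS17, 18.6 kb, also exceeds its longest coding transcript, 6.21 kb. Its place relative to genes of its length is therefore uncertain. The 8 members other than ADAMTS1 were lower in this library than in the mean of replicates 2 and 3, with values of -0.17 to -1.09. The part of RNA quality or library preparation in this was not tested.

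**Figure D3:**
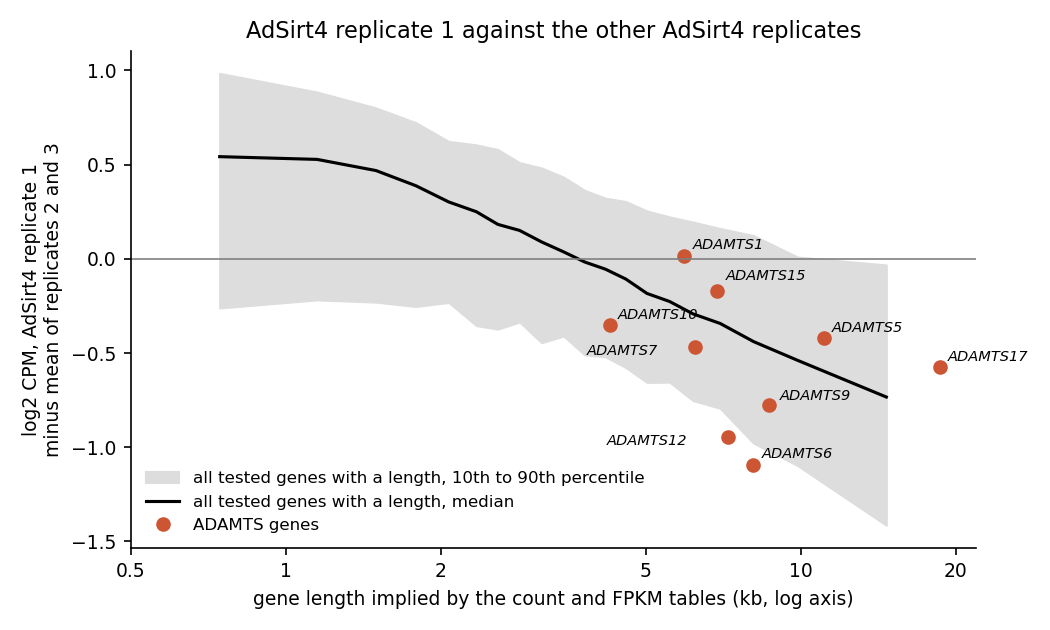
Log2 CPM of AdSirt4 replicate 1 minus the mean of AdSirt4 replicates 2 and 3 (vertical axis) against gene length (kb, log axis, as implied by the count and FPKM tables), with the median and the 10% to 90% range of all tested genes in 20 length bins and a point for each member. The median falls from 0.54 in the shortest bin to -0.73 in the longest, and ADAMTS1 lies at 0.017, above the median for its length. Before the log, 0.5 CPM was added, which draws the point of the scarce ADAMTS17 toward 0.

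A ratio formed within a library does not depend on the scaling between libraries, but it carries the gene length trend of AdSirt4 replicate 1. In that library, against replicates 2 and 3, genes of the length of ADAMTS1 had a median log2 difference of -0.25. For genes of the length of ADAMTS9, ADAMTS12 and ADAMTS10 the medians were -0.45, -0.34 and -0.064. The FPKM ratio of ADAMTS1 to ADAMTS9 was 0.248, 0.290 and 0.262 in AdCtrl and 1.03, 0.622 and 0.567 in AdSirt4. ADAMTS1 thus stayed well below ADAMTS9 in each control sample and reached its level in AdSirt4 replicate 1 alone. The ratio of ADAMTS1 to ADAMTS12 was 0.561 to 0.652 in AdCtrl and 0.857 to 2.08 in AdSirt4, and that to ADAMTS15 was 1.30 to 1.41 and 2.74 to 3.67. For 7 of the 8 partners every AdSirt4 ratio lay above every AdCtrl ratio, the exception being the scarce ADAMTS17. These ratios share the ADAMTS1 values by which the family was chosen and show unequal change, not which partner stayed constant. Ratios to genes outside the members were not formed, so the count of 7 has no share over all genes beside it.

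**Figure D4:**
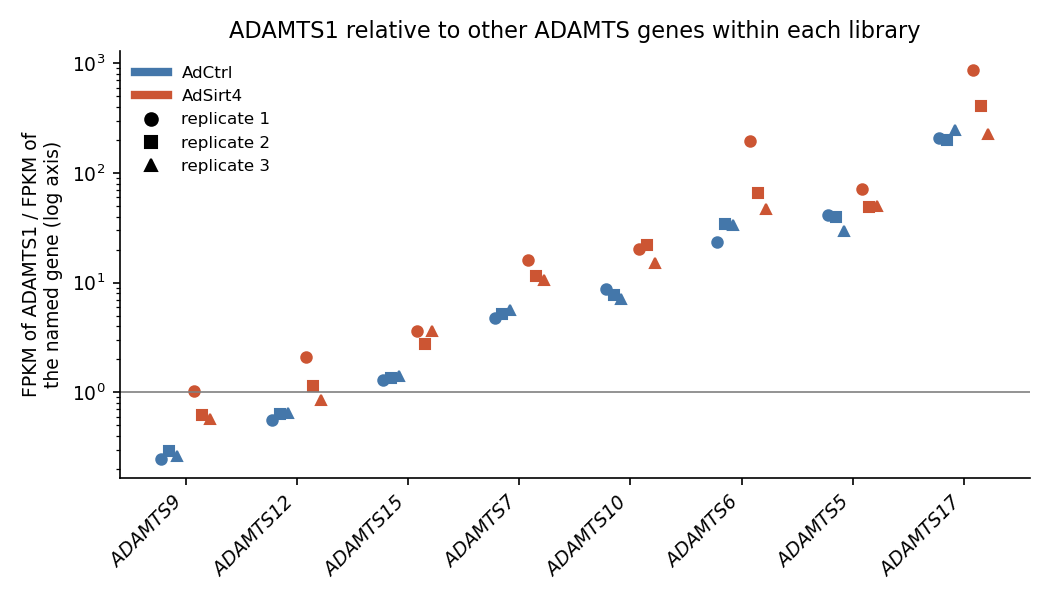
FPKM of ADAMTS1 divided by that of each tested partner in the same library (log axis), with 1 point per sample and a line at equal levels. AdSirt4 points lie above AdCtrl points for 7 of 8 partners, with ADAMTS17 overlapping.

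Levels between genes can be compared per length, in FPKM. In AdCtrl the order was ADAMTS9 at 25.1 ± 2.53, ADAMTS12 at 10.8 ± 0.677, ADAMTS1 at 6.65 ± 0.390, ADAMTS15 at 4.90 ± 0.162, ADAMTS7 at 1.28 ± 0.0403 and ADAMTS10 at 0.853 ± 0.134 FPKM (SD, n = 3). ADAMTS6, ADAMTS5, ADAMTS17 and ADAMTS4 were between 0.223 and 0.0137 FPKM, and of all neighbors in this order the ranges of ADAMTS6 and ADAMTS5 alone overlapped. In AdSirt4 ADAMTS9 was at 19.3 ± 6.19, ADAMTS1 at 13.2 ± 0.590 and ADAMTS12 at 11.2 ± 4.84 FPKM, and the ranges of these neighbors overlapped. For ADAMTS9 and ADAMTS1 the overlap came from AdSirt4 replicate 1 alone, at 12.2 and 12.6 FPKM. In replicates 2 and 3 ADAMTS9 was at 22.0 and 23.6 FPKM and ADAMTS1 at 13.7 and 13.4 FPKM. ADAMTS15 followed at 4.04 ± 0.831 FPKM. Overlaps were also seen for ADAMTS7 with ADAMTS10, ADAMTS5 with ADAMTS6 and ADAMTS17 with ADAMTS4.

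Across the 19 ADAMTS genes of the table, ADAMTS1 made up 9.82%, 10.8% and 10.4% of the summed FPKM in AdCtrl and 26.8%, 19.5% and 17.9% in AdSirt4. ADAMTS9 made up 39.6%, 37.2% and 39.7% and then 26.0%, 31.4% and 31.6%. The sum itself was 65.2, 59.7 and 68.2 FPKM in AdCtrl and 46.9, 70.2 and 74.7 FPKM in AdSirt4. It was lowest in AdSirt4 replicate 1, the library with the gene length trend. Among the members ADAMTS1 ranked 3 in each AdCtrl sample and ranked 1, 2 and 3 in AdSirt4 replicates 1, 2 and 3, respectively.

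The profile of ADAMTS1 over the 6 samples was closest to those of LINC02803, NDRG1, MGAT4C, FUT11 and DHRS3. The measure was the root mean square difference of centered log2 CPM, with 0.5 CPM added before the log. This difference was 0.0898, 0.0906, 0.0970, 0.122 and 0.129 respectively, against a median of 0.534 over all genes tested. The samples include those by which the family was chosen, and the values are a description. NDRG1, the most abundant of them, was at 86.4, 84.5 and 78.8 CPM in AdCtrl and 180.8, 165.5 and 151.9 CPM in AdSirt4. LINC02803 had only 12 to 90 counts per library, or 0.222 to 1.04 CPM, so the added 0.5 CPM shrinks its profile. Its edgeR log2 difference was 1.69, against 1.03 for ADAMTS1, and its rank as the closest profile rests on that addition.

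The wider pathway comprised lists of other ADAMTS and ADAMTS-like genes, ADAM proteases, genes for processing and secretion, inhibitors and clearance receptors, matrix substrates and hypoxia factors, with 49 genes tested. None passed an adjusted p under 0.05 in edgeR, and DESeq2 called 2, both higher (0.7% of all genes were called higher by DESeq2). The unadjusted edgeR p was below 0.05 for 6 genes, of which 4 were higher in AdSirt4 and 2 lower, against 4.43% and 3.5% of all genes tested. Their median log2 difference was -0.050, with 19 higher and 30 lower, and without AdSirt4 replicate 1 the same 49 genes had a median of 0.014, with 25 higher and 24 lower. SDC4 and CCN2 were the genes with an unadjusted p under 0.01, both higher. Without AdSirt4 replicate 1 the edgeR count was 7 of 51 tested, 5 higher and 2 lower, in a fit that called 3.37% of all genes higher and 3.34% lower. The genes, named after their values were seen, were SDC4, CCN2, THBS1, FN1 and ADAM12 as higher and NID2 and HIF1A as lower.

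Among the relatives, 4 of 9 other ADAMTS genes were tested, with 2 on each side of 0, and without AdSirt4 replicate 1 the same 4 were above 0. ADAMTS16 had the smallest p among them, at a log2 difference of 0.092 (edgeR unadjusted p 0.533). ADAMTS3, a procollagen N-propeptidase named after its values were seen, was the one abundant gene of this list, at 88.4 ± 0.946 and 87.1 ± 12.2 CPM and a log2 difference of -0.02, or 0.08 without AdSirt4 replicate 1. Of 5 ADAMTS-like genes tested, which lack the protease domain, 1 was higher and 4 lower (3 higher and 2 lower without AdSirt4 replicate 1), and ADAMTSL5 had the smallest p at -0.093 (unadjusted p 0.487). Of 8 ADAM proteases tested, 3 were higher and 5 lower (2 and 6 without that library). ADAM8, a membrane protease best known from leukocytes, was at 2.20, 1.98 and 2.65 CPM in AdCtrl and 5.06, 3.68 and 2.92 CPM in AdSirt4. Its groups did not overlap, but its log2 difference of 0.76 (SE 0.239) had an edgeR adjusted p of 0.545, with 0.103 without AdSirt4 replicate 1. The leukocyte marker sum was also highest in that library, mostly from CD68 at 46.5 CPM. There CD14 was at 2.95 CPM, and PTPRC and CD3E were at 0. HK2 is a cultured epithelial line, and the source of the ADAM8 and CD68 transcripts was not tested.

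Of 6 tested genes for processing and secretion, 1 was higher and 5 lower, and 3 stood on each side of 0 without AdSirt4 replicate 1. FURIN, the convertase that removes ADAMTS propeptides, was at 66.1 ± 1.62 and 57.4 ± 13.2 CPM (log2 difference -0.20, edgeR adjusted p 0.766), and the difference was -0.034 without AdSirt4 replicate 1. PCSK7, a related convertase, had the smallest p of this list at -0.30 (unadjusted p 0.166), and -0.10 without that library. Of 6 tested inhibitors and clearance genes, 4 were higher and 2 lower. TIMP3, the tissue inhibitor of several ADAMTS proteases, is listed at 0 counts in every sample. LRP1, the endocytic receptor that clears several of them, was at 167.2 ± 10.4 and 140.5 ± 60.9 CPM (log2 difference -0.25), with AdSirt4 replicate 1 at 71.6 CPM and a difference of 0.06 without it. SDC4, a membrane heparan sulfate proteoglycan, was at 382.9, 432.5 and 426.1 CPM in AdCtrl and 568.4, 551.0 and 580.3 CPM in AdSirt4. The groups stood apart and replicate 1 lay within its group. Its log2 difference was 0.45 (SE 0.106), with an adjusted p of 0.494 in edgeR, 0.000346 in DESeq2 and 0.00361 in edgeR without AdSirt4 replicate 1.

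Of 17 tested substrates and matrix partners, 8 were higher and 9 lower (9 and 8 without AdSirt4 replicate 1). Versican (VCAN), the proteoglycan cleaved by the hyalectanases, was abundant, at 1035, 1007 and 1027 CPM in AdCtrl and 511.4, 986.7 and 948.0 CPM in AdSirt4. All AdSirt4 samples were below AdCtrl, replicates 2 and 3 by little and replicate 1 by much. The log2 difference was -0.33 (SE 0.246, edgeR adjusted p 0.747) and -0.086 without replicate 1 (adjusted p 0.326), and in FPKM the groups overlapped. CCN2, a matricellular protein induced by TGF-β1, was at 347.2, 349.0 and 352.8 CPM in AdCtrl and 709.8, 527.0 and 506.7 CPM in AdSirt4. The groups stood apart with replicate 1 highest, and the log2 difference was 0.73 (SE 0.152) with an adjusted p of 0.494 in edgeR, 0.00229 in DESeq2 and 0.000282 in edgeR without replicate 1, where the difference was 0.56. Transcript data do not show protease activity or cleavage of any of these substrates.

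Of 4 tested hypoxia factors, 1 was higher and 3 lower. HIF1A, the oxygen-regulated transcription factor subunit, was at 897.0 ± 53.3 CPM in AdCtrl and 712.4 ± 83.6 CPM in AdSirt4, with every AdSirt4 sample below every AdCtrl sample. Its log2 difference was -0.33 (SE 0.132, edgeR adjusted p 0.612), and -0.25 without AdSirt4 replicate 1 (adjusted p 0.0366).

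**Figure D5:**
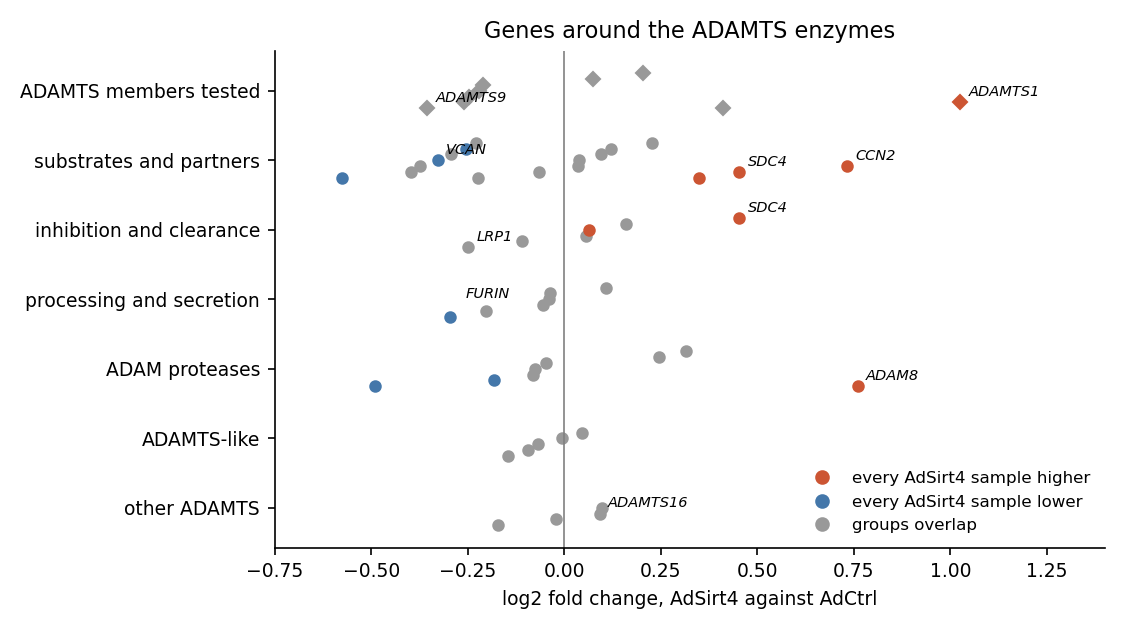
Log2 difference (AdSirt4 minus AdCtrl, all 6 libraries) of the 9 tested members (diamonds) and of the tested genes of each pathway list but the hypoxia factors (circles), 1 row per list, colored by whether the groups overlap in CPM. ADAMTS1 lies at 1.03, and the pathway genes run from -0.57 to 0.76.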

How the data were processed

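Poly-A RNA-seq of 6 samples (3 AdCtrl, 3 AdSirt4) was available as a table of whole-number counts per gene, deposited by the authors without normalization, and a second table deposited by the authors in a unit inferred from its values to be FPKM. The submitters' processing notes name fastp 0.21.0, HISAT2 2.1.0, StringTie 2.1.5, DESeq2 1.30.1 and the build hg38, without assigning steps. No column was left unmapped.

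Groups came from the sample titles. Counts were tested with edgeR 4.0.16 (limma 3.58.1, R 4.3.3): TMM scaling, filterByExpr (minimum count 10), robust quasi-likelihood fit and Benjamini-Hochberg adjustment over 17720 genes, with a threshold of 0.05. CPM are TMM-scaled. DESeq2 1.42.0, limma on log2(FPKM + 1) and the other settings in the closing section were alternatives. The plain edgeR fit, its block and length-trend versions, DESeq2, voom with quality weights and limma on log2(FPKM + 1) were checked on simulated counts. These counts carried no length trend, departing library or replicate pairing, and the other settings were not simulated. Counting intervals and the floor of 3 counts cover counting error only. With 3 against 3 samples, an exact permutation test of a single value cannot go below a p of 0.1, so none was run.

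Samples with the same replicate number deviated together (Pearson 0.210, 0.154 and 0.255; all other pairs -0.221 to 0.0546), so the block fit was treated as a paired analysis, with the pairing taken from these values and not from a stated batch. These deviations include the gene length trend. Its rho in AdCtrl and AdSirt4 was -0.18 and -0.61 for replicate 1, -0.022 and 0.54 for replicate 2 and 0.19 and 0.55 for replicate 3. The part of that trend in the pairing was not tested. No libraries agreed within sampling noise.

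The members and gene lists were chosen with earlier results of these data known. Named were all members, list genes with an adjusted p under 0.05 or an unadjusted p under 0.01 (otherwise the smallest p of the list), VCAN, TIMP3, LRP1, FURIN and SIRT4, and the 5 genes nearest to ADAMTS1 in profile. Positions are from GENCODE v29.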

Additional observations from a re-analysis of the deposited data

How the results depend on the processing

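The log2 difference of ADAMTS1 stayed above 0 in all 18 alternatives, between 0.89 and 1.10, and its adjusted p ran from 1.51e-33 to 0.93 and was under 0.05 in 8 of them. It was 0.89 in limma on log2(FPKM + 1), with or without the replicate block or a mean of at least 1 FPKM, 0.98 on log2(FPKM + 0.1), 1.10 with the length trend removed and 1.09 with the replicate block as well, and 1.00 to 1.05 when leaving out single libraries. Genes called numbered 2 in edgeR, 206 in DESeq2 (124 higher, 82 lower), 5 without the filter, 4 with at least 10 counts in every sample, 1 with the replicate block, 0 in limma on log2(FPKM + 1) with or without the block (216 higher and 160 lower at an unadjusted p under 0.01 without it), 1 on log2(FPKM + 0.1), 5 at a mean of at least 1 FPKM, 12 with the length trend removed, 6 with the block as well (4 higher, 2 lower), 1685 in voom with quality weights (884 higher, 801 lower) and 0 to 1227 when leaving out single libraries, the highest without AdSirt4 replicate 1; the cause was not tested. Pathway genes called rose from 0 to 2 in DESeq2, 7 in voom with quality weights and 0 to 7 when leaving out single libraries. Higher members other than ADAMTS1 numbered 3, 0 at a mean of at least 1 FPKM, where fewer members were tested, and 1 to 4 when leaving out single libraries. The block ended the call of ADAMTS1 and changed no other call among the members and pathway lists. Depth limits ADAMTS4 and ADAMTS17.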
